A study of Homo sapiens with 16 samples.

Results

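Transcript levels of 37 p53 pathway genes were measured in quiescent U2OS cells given 1 of 2 inhibitors of the kinase DYRK1A. The genes were taken by symbol from a fixed list of negative regulators and common targets of the transcription factor p53, and the rule uses no measured value, although the list was drawn up with earlier results of these data known. All 37 were among the 59081 genes measured, and 35 of them were among the 20446 genes that passed the filter on low counts and were tested. U2OS is a human osteosarcoma line that is widely used as a model with a working p53 response. In all groups, confluent cells went without serum for 48 h before RNA was taken and received an agent or its solvent during the last 24 h. The groups were harmine hydrochloride at 10 µM with its control water, and INDY at 25 µM with its control DMSO, with 4 RNA-sequencing libraries each. The compounds therefore differ in dose and in solvent, and no control library serves both. The sources do not say that the 4 replicates came from separate cultures, so a p-value here is set against library-to-library spread that can be technical.

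The protein p53 is kept low in unstressed cells, mainly because MDM2 marks it for degradation and MDM2 and MDM4 cover the part of it that activates genes. DNA damage and other stresses free p53, which then binds pairs of a short motif and raises genes that halt the cell cycle, repair or spare the cell, or start apoptosis. Several of these targets, MDM2 among them, act back on p53 and end the response. Many targets are also controlled by other factors, so a change in a target's transcript is not a measure of p53 activity.

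Levels are given as counts per 1000000 (CPM), the estimated counts of a gene scaled to the library's total and to the composition of the libraries. The totals were 44301910 to 65889667 per library, and the 37 genes took 0.2609 to 0.3308% of them. The mesenchymal and osteoblast markers summed to 3370 to 3470 CPM with harmine, 2760 to 2970 CPM with water, 3180 to 3580 CPM with INDY and 3000 to 3220 CPM with DMSO. Most of this was vimentin and SPARC. With INDY 4 of the 6 tested markers were lower (ALPL with a log2 fold change of -2.29, RUNX2 -0.53, SPARC -0.44 and COL1A1 -0.36) and vimentin was higher (0.28). With harmine RUNX2 (0.58), SPARC (0.43) and vimentin (0.22) were higher, and COL1A1 (-0.33) and ALPL (-0.34) were lower. The osteoblast genes SP7, IBSP and COL1A2 did not pass the filter. Epithelial markers summed to 31.4 to 34.4 CPM with harmine, 62 to 81 CPM with water, 37.3 to 49.1 CPM with INDY and 52.4 to 63.5 CPM with DMSO. CLDN4, the most abundant of them in every group, was lower with harmine (log2 -1.20) and with INDY (-0.36). Blood markers, of which ITGAM was the most abundant in every group, summed to 11.2 to 13.5 CPM with harmine, 34.4 to 37.5 CPM with water, 7.64 to 9.31 CPM with INDY and 32.3 to 35.1 CPM with DMSO. ITGAM was lower with harmine (log2 -1.65) and with INDY (-2.39). CD14 (4.41) and CD79A (2.23) were higher with INDY, at averages of 1.5 and 0.415 CPM with INDY and 0.0664 and 0.0858 CPM with DMSO. The part of these marker shifts in the results was not tested, and in bulk RNA fewer cells of a type and less RNA per cell cannot be told apart. INDY libraries 1 and 3 stood apart from libraries 2 and 4, water libraries 1 and 4 from libraries 2 and 3, and, in fewer genes, harmine libraries 1 and 2 from libraries 3 and 4. The main counts are also given without such pairs. These pairs were chosen after the data were seen.

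The list was chosen by gene name, and many of its genes carry a match to the p53 response element near their start. Because most were listed as targets of p53, their share of such matches is a description and not an independent result. The 2500 bases on each side of the main transcript's start were read from GRCh38 on both strands for the 20-letter p53 response element consensus, with 0 to 3 spacer bases and the outer C and G of each core kept. A site with all letters matched was found in 3 of the 37 genes (8.11%), against 0.189% of the 14815 protein-coding genes tested. With at most 1 letter off there were 7 genes (18.9%), against 2.29%, and with at most 2 letters off 19 genes (51.4%), against 14%. The sites below are some of those found, in genes described further on, and the capitals mark the core of each motif copy. Sites in other genes, BAX, AEN and BTG2 among them, are not printed. They are written 5′ to 3′ on the strand that the gene is read from.
TIGAR, intron 1, chr12:4321615-4321636, plus strand: agaCATGtccacagaCTTGtct
ZMAT3, intron 1, chr3:179070188-179070207, minus strand: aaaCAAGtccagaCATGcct
PLK2, upstream of the start, chr5:58462274-58462293, minus strand: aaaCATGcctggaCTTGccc
CCNG1, intron 1, chr5:163437926-163437945, plus strand: gcaCAAGcccaggCTAGtcc
EDA2R, intron 1, chrX:66638713-66638732, minus strand: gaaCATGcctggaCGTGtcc
GADD45A, intron 3, chr1:67686775-67686794, plus strand: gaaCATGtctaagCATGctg
MDM2, intron 1, chr12:68808923-68808942, plus strand: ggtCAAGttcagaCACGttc
ACER2, intron 1, chr9:19409522-19409541, plus strand: gaaCCTGccgggaCAAGtct
The first 3 match the consensus in all letters, CCNG1, EDA2R and GADD45A have 1 letter off, and MDM2 and ACER2 have 2. The list is not one of genes that moved alike: PLK2 passed the test with neither compound, and ACER2 rose with one compound and fell with the other. Of the 20 genes that were higher with INDY, 9 (45%) had a site with at most 2 letters off, and of the 17 that were higher with harmine, 8 (47.1%). A match is a stretch of letters and not a measure of binding. In shorter windows from RefSeq (GRCh38.p14), 250 bases before to 50 after the start, which were found for 29 of the genes, a single 10-letter copy stood in 5 (17.2%), against 8.06% of the windows of all genes, and no window held a full pair.

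Both compounds raised more p53 pathway genes than they lowered, mostly by small steps, and 12 genes were raised by both. With harmine, 17 of the 35 genes were higher (24.9% of all genes tested were) and 3 were lower (22.8% of all were), at an adjusted p under 0.01 from edgeR's quasi-likelihood test. With INDY, 20 were higher (33.2% of all) and 6 were lower (33.4% of all). The shares changed in either direction were 57.1% of the 35 genes with harmine, against 47.7% of all genes, and 74.3% with INDY, against 66.6%. The median log2 fold change of the 35 genes was 0.17 with harmine and 0.20 with INDY, where the medians of all genes were 0.02 and -0.01. Changes of at least 1.5-fold were called for 3 genes with harmine (8.57%, against 16.3% of all genes) and for 7 with INDY (20%, against 33.7% of all). All harmine libraries lay above all water libraries in 17 genes (28.6% of all genes) and below them in 5 (26.4%), 62.9% together, against 55.1% of all genes. All INDY libraries lay above all DMSO libraries in 18 genes (33.4% of all) and below them in 6 (34.1%), 68.6% together, against 67.5% of all genes. Without harmine libraries 1 and 2, 10 genes were higher and 3 lower with harmine, without harmine libraries 3 and 4, 12 were higher and 1 was lower, and without water libraries 1 and 4, 14 were higher and 1 was lower. INDY raised 16 and lowered 7 without INDY libraries 1 and 3, and raised 21 and lowered 5 without INDY libraries 2 and 4. For counts with libraries left out, here and further on, shares of all genes were not counted. Such counts show how the calls depend on the libraries and are no result about the list.

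Called directions were shared by 13 genes. The genes higher with both compounds were BBC3, APAF1, AEN, TP53I3, TNFRSF10C, EDA2R, PIDD1, GADD45A, FDXR, KITLG, ZMAT3 and CYFIP2, which are 34.3% of those tested, against 12.1% of all genes. TNFRSF10B alone was lower with both (2.86%, against 12% of all genes). BAX, SESN1 and ACER2 rose with harmine and fell with INDY (8.57%, against 6.26% of all genes), and no gene of the list did the reverse (4.55% of all genes). BTG2 and TRIAP1 were higher and PMAIP1 and SUSD6 lower with harmine only. A further 8 genes, MDM2, MDM4, FAS, CCNG1, PLK3, TIGAR, RRM2B and PHLDA3, were called higher with INDY and not with harmine, and TNFRSF10D and TP53I11 were called lower with INDY and not with harmine. PPM1D, PLK2, DRAM1, TP53INP1 and GDF15 passed with neither. Not passing with one compound does not show that the compounds differ, and the test of that difference is given further on.

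**Figure D1:**
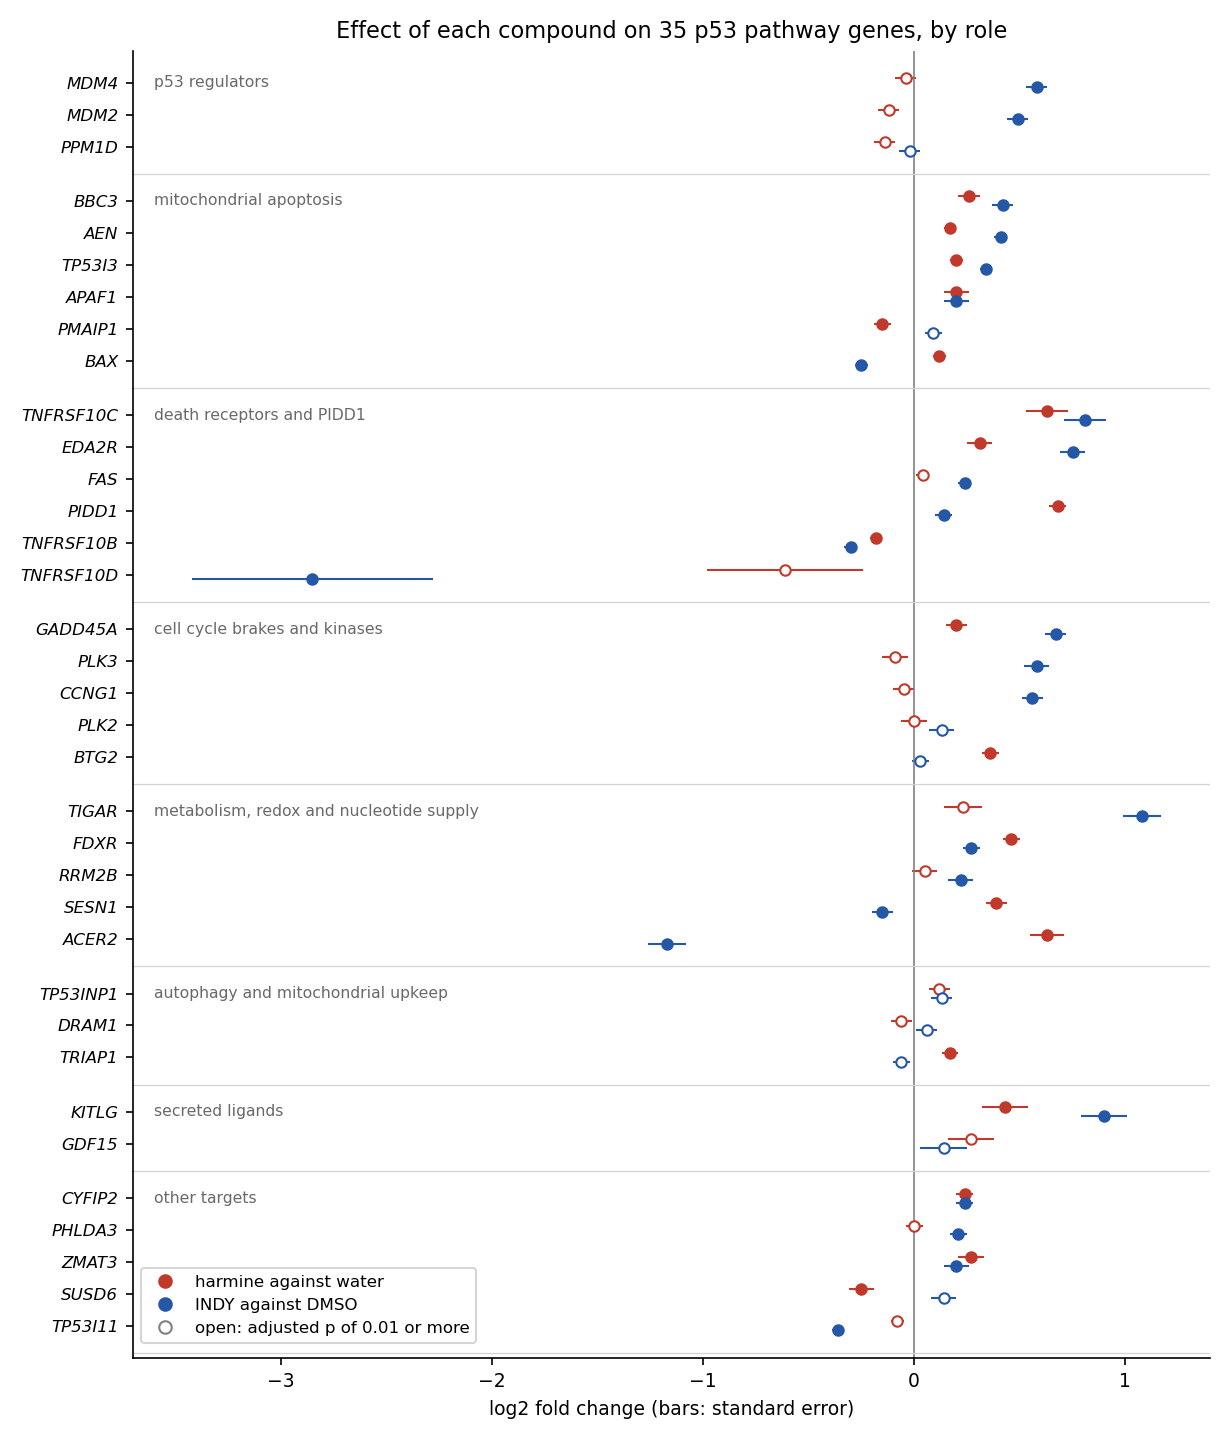
Log2 fold change (x axis) of each of the 35 tested p53 pathway genes (y axis, grouped by role) with harmine against water (red) and INDY against DMSO (blue), with standard errors as bars and open symbols where the adjusted p was 0.01 or more. Most symbols lie within 1 log2 unit of 0, TIGAR with INDY lies at 1.08, and ACER2 lies at 0.63 with harmine and -1.17 with INDY.

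Of the genes whose proteins hold p53 in check, MDM2 and MDM4 were called higher with INDY and not with harmine, and this difference passed its own test, given further on. MDM2 (chr12:68808177-68845544, plus strand), the ubiquitin ligase of p53, had 204, 175, 202 and 190 CPM in INDY libraries 1 to 4, against 131, 143, 134 and 142 CPM in DMSO libraries. All INDY libraries lay above all DMSO libraries, and MDM2 was 1.4-fold higher with INDY (log2 0.49, standard error 0.05, adjusted p = 1.93e-08 from edgeR). With harmine it had 140, 132, 126 and 123 CPM, against 143, 140, 146 and 137 CPM with water. These groups overlapped, and the log2 fold change of -0.12 did not pass (adjusted p = 0.0368 from edgeR), although it did without harmine library 1 (-0.17, adjusted p = 0.00734). This fall also passed with only the 8 libraries compared (-0.13, adjusted p = 0.00719 from edgeR), with library totals (-0.16) and with no filter (-0.14). It passed without INDY library 2, INDY libraries 1 and 3, or INDY libraries 2 and 4 too (-0.13 each). MDM4 (chr1:204516379-204558120, plus strand), its relative that binds p53 without degrading it on its own, followed the same pattern. It had 58.8, 52.2, 62.5 and 52.2 CPM with INDY, against 37, 38.5, 36.8 and 39.1 CPM with DMSO, with no overlap and a log2 fold change of 0.58 (adjusted p = 4.99e-09 from edgeR). With harmine MDM4 had 41.7, 41.1, 42.9 and 40.3 CPM, against 42.5, 41.1, 42.3 and 44.5 CPM with water (log2 -0.04). PPM1D (chr17:60600193-60666280, plus strand), the phosphatase WIP1 that reverses damage signalling to p53, passed with neither compound. Its levels were 136, 129, 125 and 128 CPM with harmine, against 148, 139, 138 and 147 CPM with water, so that every harmine library lay below every water library (log2 -0.14, adjusted p = 0.0156 from edgeR). This change passed when harmine library 1, water library 3 or 1 of INDY libraries 2 to 4 was left out, with log2 fold changes of -0.16 to -0.18. The change also passed with only the 8 libraries compared (-0.16, adjusted p = 0.00111 from edgeR), with upper-quartile factors, with library totals and with no filter. With INDY it had 141, 118, 141 and 124 CPM, against 134, 131, 131 and 135 CPM with DMSO (log2 -0.02). INDY libraries 1 and 3 lay above and libraries 2 and 4 below the DMSO libraries. Of these 3 genes none was called with harmine by edgeR or limma voom, where edgeR called 47.7% of all genes. In edgeR 2 of them had an unadjusted p under 0.05, both lower, and DESeq2 called 1 lower.

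**Figure D2:**
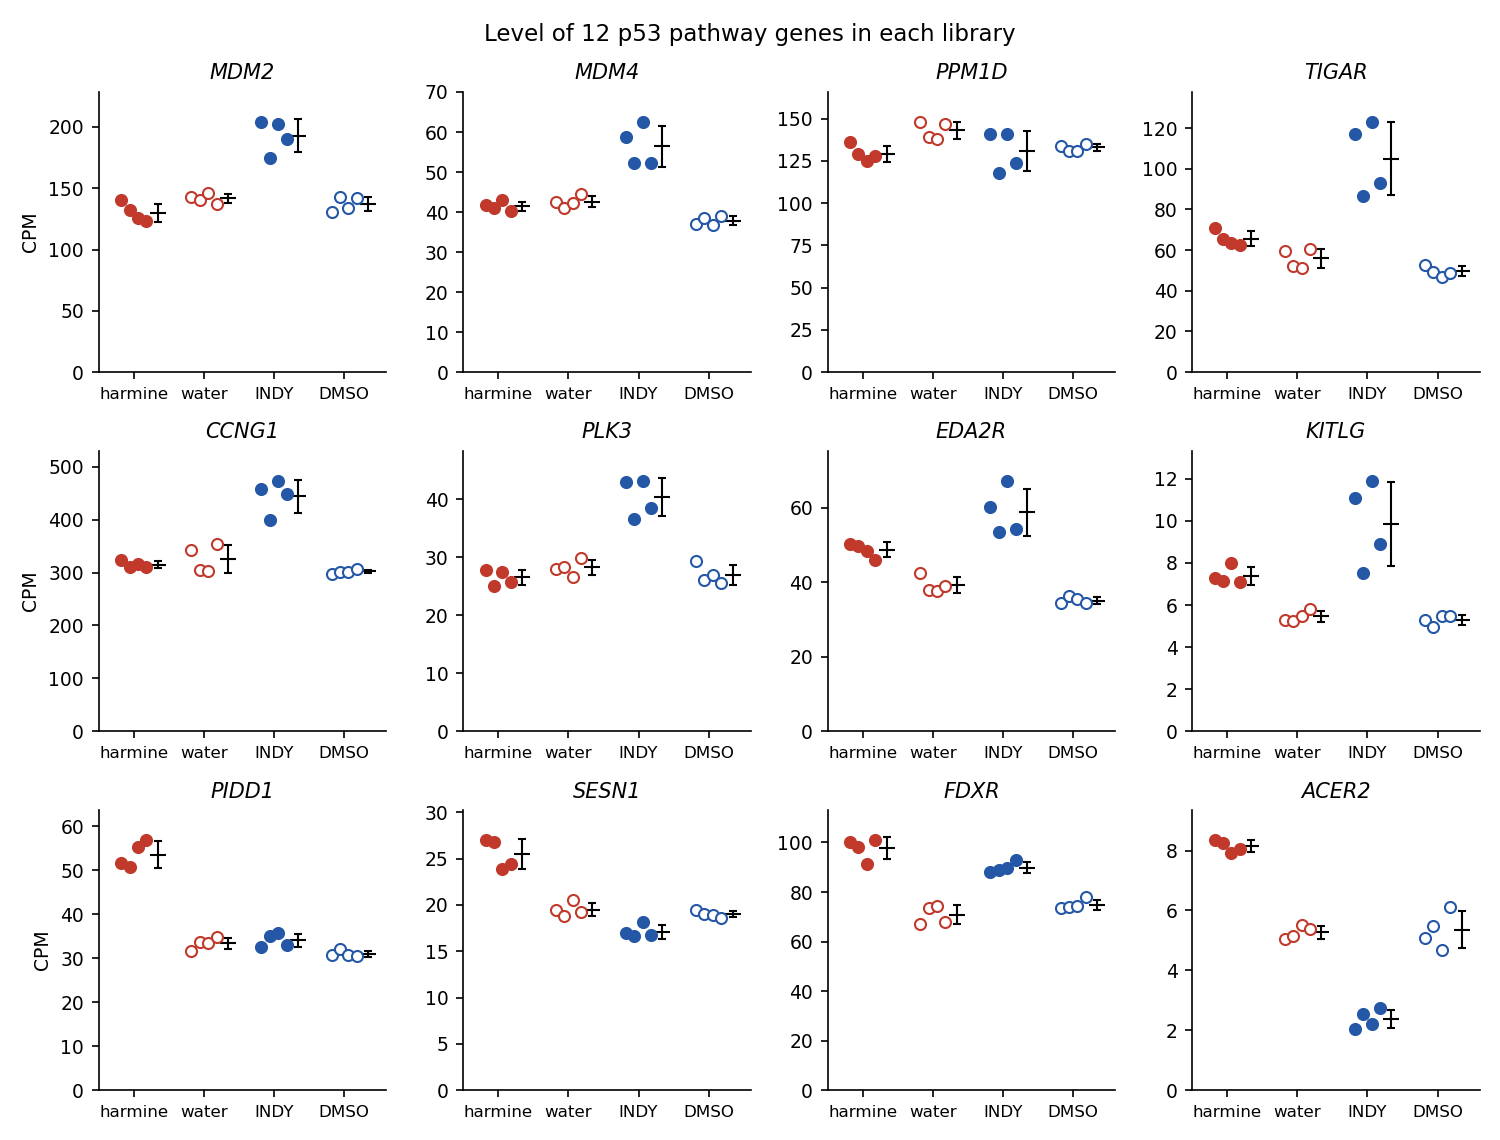
CPM (y axis, from 0) of 12 p53 pathway genes in each of the 16 libraries, as points for harmine (filled red), water (open red), INDY (filled blue) and DMSO (open blue), and black bars for each group's mean and SD (n = 4). MDM2, MDM4, TIGAR, CCNG1 and PLK3 stand out in the INDY libraries, PIDD1 and SESN1 in the harmine libraries, and ACER2 is high with harmine and low with INDY.

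The genes of mitochondrial apoptosis changed by small steps. All 6 were called with harmine, 5 higher and 1 lower, and 5 with INDY, 4 higher and 1 lower, where 47.7% of all genes were called with harmine and 66.6% with INDY. BBC3, which encodes the BH3-only protein PUMA, averaged 35.6 ± 2.6 CPM with harmine and 29.7 ± 0.81 CPM with water, and 41.9 ± 1.5 CPM with INDY and 31.3 ± 1.2 CPM with DMSO (SD, n = 4 each). It was thus 1.2-fold higher with harmine and 1.34-fold higher with INDY. AEN, a nuclease that acts in apoptosis, and TP53I3, a quinone oxidoreductase, were higher with both compounds, by log2 0.17 and 0.20 with harmine and 0.41 and 0.34 with INDY. APAF1, the scaffold of the apoptosome, rose by log2 0.20 with each. The call for harmine was lost without harmine library 1 or 3, water library 1, 3 or 4, or INDY library 2 or 4 (log2 0.14 to 0.19), and that for INDY without INDY library 1 or DMSO library 2 or 3 (0.17 to 0.19). BAX, which forms pores in the mitochondrial membrane, moved in opposite directions. It averaged 102 ± 1.3 CPM with harmine and 94.2 ± 2.7 CPM with water, and 68.2 ± 1.6 CPM with INDY and 80.8 ± 3 CPM with DMSO (SD, n = 4 each). The rise with harmine (log2 0.12) was lost without any 1 of the harmine libraries or water library 2 or 3 (0.09 to 0.11). The fall with INDY (log2 -0.25) was kept in every alternative fit, although it is under 1.5-fold. PMAIP1, which encodes the BH3-only protein NOXA, fell by 0.15 on the log2 scale with harmine. The call was lost without harmine library 2, water library 1 or water library 4 (-0.12 to -0.15). Those water libraries held its highest levels, 156 and 153 CPM, and without both the log2 fold change was -0.07 (adjusted p = 0.206 from edgeR).

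The TRAIL receptor genes, which are neighbours on chromosome 8, moved in different directions. TNFRSF10B (chr8:23020133-23069031, minus strand), the TRAIL receptor DR5, was lower with both compounds. It had 163, 159, 162 and 158 CPM with harmine, against 183, 178, 179 and 188 CPM with water, and 144, 146, 143 and 140 CPM with INDY, against 182, 177, 175 and 171 CPM with DMSO. Neither pair of groups overlapped, and the log2 fold changes were -0.18 (adjusted p = 1.21e-05) and -0.30 (adjusted p = 8e-09, both from edgeR). TNFRSF10C (chr8:23102921-23117445, plus strand), a decoy receptor that binds TRAIL without a death domain, went the other way. It had 4.39, 5.17, 4.96 and 4.8 CPM with harmine, against 2.99, 2.62, 3.37 and 3.54 CPM with water, which is 1.55-fold higher (adjusted p = 3.67e-05 from edgeR). With INDY it had 5.88, 5.58, 4.64 and 5.02 CPM, against 2.97, 3.3, 3.1 and 2.65 CPM with DMSO, which is 1.75-fold higher (adjusted p = 9.25e-07 from edgeR). These groups did not overlap, but 20.4% of the 100-nt stretches of its transcripts also occur in another annotated gene, so its counts are uncertain. TNFRSF10D, the other decoy receptor, was near the limit of detection. It had 0.0916, 0.132, 0.294 and 0.199 CPM with harmine, against 0.175, 0.295, 0.253 and 0.386 CPM with water, and 0.04, 0.0188, 0 and 0.0427 CPM with INDY, against 0.13, 0.199, 0.205 and 0.215 CPM with DMSO. Over 4 libraries this is 5 counts with INDY and 40 with DMSO, a ratio of 0.128 at equal depth (95% interval 0.0393 to 0.324, for counting error only). TNFRSF10A, the TRAIL receptor DR4, was not tested, with sums of 3 counts with harmine, 8 with water, 6 with INDY and 4 with DMSO over 4 libraries.

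EDA2R (chrX:66595637-66639298, minus strand), a receptor of ectodysplasin A2, had 50.4, 49.8, 48.4 and 46 CPM with harmine, against 42.4, 37.9, 37.7 and 38.9 CPM with water. With INDY it had 60.3, 53.6, 67.2 and 54.2 CPM, against 34.4, 36.4, 35.4 and 34.3 CPM with DMSO. No groups overlapped, and the rise was 1.24-fold with harmine and 1.68-fold with INDY (adjusted p = 0.000183 and 1.53e-09 from edgeR). FAS, the receptor of FAS ligand, rose 1.18-fold with INDY and had a log2 fold change of 0.04 with harmine. PIDD1 (chr11:799179-809753, minus strand) encodes the scaffold on which caspase-2 is activated, and it had the largest log2 fold change with harmine of the 35 genes. Its levels were 51.6, 50.7, 55.3 and 56.9 CPM with harmine, against 31.7, 33.8, 33.5 and 34.8 CPM with water, far beyond the spread of either group (log2 0.68, standard error 0.04, adjusted p = 1.84e-10 from edgeR). With INDY it had 32.6, 35, 35.7 and 33.1 CPM, against 30.7, 32, 30.7 and 30.5 CPM with DMSO. That rise of log2 0.14 passed (adjusted p = 0.00761 from edgeR), but the call was lost under 11 alternatives, among them leaving out INDY library 2 or 3 or DMSO library 1, 3 or 4 (0.12 to 0.14).

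Among the brakes and kinases of the cell cycle, INDY raised GADD45A, CCNG1 and PLK3, and harmine raised BTG2 and, less, GADD45A. PLK3 (chr1:44800377-44805990, plus strand), a polo-like kinase of the stress response, had 43, 36.5, 43.1 and 38.5 CPM with INDY, against 29.4, 26, 26.9 and 25.5 CPM with DMSO, without overlap (log2 0.58, adjusted p = 3.91e-08 from edgeR). With harmine it had 27.8, 25, 27.4 and 25.7 CPM, against 28, 28.2, 26.6 and 29.8 CPM with water (log2 -0.09). CCNG1, or cyclin G1, which brings a phosphatase to MDM2, averaged 444 ± 32 CPM with INDY and 302 ± 3.2 CPM with DMSO, and 315 ± 5.9 CPM with harmine and 326 ± 26 CPM with water (SD, n = 4 each). Per kb of main transcript its level was the highest of the 37 genes in the INDY, DMSO and water groups. It was 182 CPM per kb with INDY, 123 with DMSO and 133 with water, ahead of BAX at 85.7, 102 and 119 CPM per kb. With harmine CCNG1 and BAX both had 129 CPM per kb. GADD45A, a stress sensor that slows entry into mitosis, rose 1.59-fold with INDY and 1.15-fold with harmine, the call for harmine being lost without harmine library 2, 3 or 4 (log2 0.18 to 0.19). BTG2, an antiproliferative protein that promotes mRNA decay, averaged 61.6 ± 2.4 CPM with harmine and 48.1 ± 0.71 CPM with water, and 46.4 ± 3 CPM with INDY and 45.3 ± 2 CPM with DMSO (SD, n = 4 each). PLK2, whose upstream site is printed above, had a log2 fold change of 0.00 for harmine and of 0.13 for INDY. Its INDY libraries spanned 53.5 to 69.5 CPM, and without INDY libraries 2 and 4 the log2 fold change was 0.23 (adjusted p = 0.000624 from edgeR), and without library 2 alone 0.20 (adjusted p = 0.00139).

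The genes of metabolism, redox balance and nucleotide supply held the largest rise of the list, in TIGAR, and its largest fall after TNFRSF10D, in ACER2, both with INDY. TIGAR (chr12:4307763-4360028, plus strand) encodes a fructose-2,6-bisphosphatase that slows glycolysis and favours the pentose phosphate pathway. It had 117, 86.5, 123 and 93 CPM with INDY, against 52.9, 49.4, 46.9 and 49 CPM with DMSO, a 2.12-fold rise without overlap (adjusted p = 2.8e-09 from edgeR). With harmine it had 70.7, 65.6, 63.7 and 62.5 CPM, against 59.4, 52.2, 51.2 and 60.7 CPM with water, also without overlap (log2 0.23, adjusted p = 0.0341 from edgeR). That rise did not pass, but it did with only the 8 libraries compared (0.22, adjusted p = 0.00399 from edgeR). It also did without INDY libraries 1 and 3 or INDY libraries 2 and 4 (0.22 each). Of its 100-nt stretches 17.4% occur in another annotated gene. ACER2 (chr9:19409009-19452505, plus strand), a ceramidase of the Golgi, had 8.35, 8.26, 7.93 and 8.04 CPM with harmine, against 5.05, 5.13, 5.5 and 5.38 CPM with water. It had 2.04, 2.53, 2.22 and 2.73 CPM with INDY, against 5.07, 5.49, 4.69 and 6.13 CPM with DMSO. The harmine libraries all lay above and the INDY libraries all below their controls, with folds of 1.55 and 0.446 (adjusted p = 3.33e-06 and 1.54e-09 from edgeR). SESN1 (chr6:108984309-109094846, minus strand), a sestrin that restrains mTORC1 signalling, had 27, 26.8, 23.9 and 24.4 CPM with harmine, against 19.4, 18.8, 20.5 and 19.2 CPM with water, a 1.31-fold rise (adjusted p = 8.45e-07 from edgeR). With INDY it had 17, 16.6, 18.2 and 16.7 CPM, against 19.4, 19, 18.9 and 18.6 CPM with DMSO. That fall of 0.15 on the log2 scale only just passed (adjusted p = 0.00946 from edgeR) and was lost under 21 alternatives, among them leaving out any library but harmine library 3 or INDY library 3 (-0.12 to -0.16). FDXR (chr17:74862497-74873031, minus strand), the ferredoxin reductase of the mitochondrial electron chain to cytochromes P450 and iron-sulfur clusters, rose with both compounds. It had 100, 98.3, 91.4 and 101 CPM with harmine, against 67.1, 73.7, 74.4 and 68 CPM with water, and 88.1, 88.8, 89.8 and 93.1 CPM with INDY, against 73.4, 73.8, 74.2 and 77.9 CPM with DMSO. The folds were 1.38 and 1.2 (adjusted p = 9.73e-09 and 5.85e-06 from edgeR). RRM2B, the p53-inducible subunit of ribonucleotide reductase, was 1.16-fold higher with INDY, although its INDY libraries, 293 to 361 CPM, overlapped its DMSO libraries, 275 to 301 CPM. The call was lost without INDY library 1 or 3 or DMSO library 2 (log2 0.18 to 0.20), and without INDY libraries 1 and 3 together the change was 0.11 (adjusted p = 0.108 from edgeR).

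Among the genes of autophagy and mitochondrial upkeep, TRIAP1, which moves lipids between the mitochondrial membranes, was 1.13-fold higher with harmine. TP53INP1 and DRAM1, which promote autophagy, had log2 fold changes between -0.06 and 0.13 and passed with neither compound, except that TP53INP1 passed with INDY when INDY library 2 was left out (0.19). With INDY none of the 3 tested genes of this group was called by edgeR, DESeq2 or limma voom, where edgeR called 66.6% of all genes. Of the 3, 1 had an unadjusted p under 0.05 in edgeR. SPATA18, a gene of mitochondrial quality control, had sums of 2 counts with harmine, 3 with water, 1 with INDY and 3 with DMSO and was not tested.

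Of the secreted ligands, KITLG (chr12:88492793-88580851, minus strand), the ligand of the receptor KIT, rose with both compounds. It had 7.3, 7.15, 7.99 and 7.09 CPM with harmine, against 5.31, 5.24, 5.48 and 5.82 CPM with water (log2 0.43, adjusted p = 0.0019 from edgeR), a call lost without harmine library 3 (0.38, adjusted p = 0.0113) and without harmine libraries 1 and 2 together (0.45, adjusted p = 0.0131). With INDY it had 11.1, 7.52, 11.9 and 8.91 CPM, against 5.3, 4.95, 5.46 and 5.49 CPM with DMSO (log2 0.90, adjusted p = 3.63e-07 from edgeR). None of these groups overlapped, and INDY libraries 1 and 3 were again the higher pair. GDF15, a stress cytokine and a frequent marker of p53 activity, passed with neither compound and stayed at 2.66 to 4.9 CPM in all 16 libraries. The log2 fold change was 0.27 for harmine (adjusted p = 0.0405 from edgeR) and 0.14 for INDY.

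The other targets were mixed. CYFIP2, a subunit of the WAVE complex that drives actin branching, was 1.18-fold higher with each compound. ZMAT3, an RNA-binding protein, was 1.2-fold higher with harmine and 1.15-fold higher with INDY, and the call for INDY was lost without any 1 of INDY libraries 1, 3 and 4 or DMSO libraries 2 to 4 (log2 0.16 to 0.20). Without INDY libraries 1 and 3 together, its change was log2 0.10 (adjusted p = 0.168 from edgeR). PHLDA3, which blocks membrane binding of AKT, was 1.16-fold higher with INDY, and 12.8% of its 100-nt stretches occur in another gene. SUSD6 averaged 45.3 ± 0.74 CPM with harmine and 53.7 ± 1.5 CPM with water (SD, n = 4 each), a fall of 0.25 on the log2 scale. With INDY its log2 fold change of 0.14 passed only without INDY library 2 or 4 (0.19), or without both (0.28). TP53I11 fell by 0.36 on the log2 scale with INDY. Its log2 fold change of -0.08 with harmine did not pass (adjusted p = 0.0431 from edgeR). It did with only the 8 libraries compared (-0.10, adjusted p = 0.0081 from edgeR) and with library totals (-0.13).

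The effects of harmine and INDY, each against its own control, differed for 21 of the 35 genes (60%, against 54.5% of all genes). This comparison is of effects at 10 µM and 25 µM in different solvents and so does not rank the compounds. The harmine effect lay above the INDY effect for 9 genes (28.1% of all genes) and below it for 12 (26.4% of all). These counts were 7 and 12 without INDY libraries 1 and 3, 7 and 16 without INDY libraries 2 and 4, 8 and 10 without water libraries 1 and 4, 8 and 11 without harmine libraries 1 and 2, and 8 and 12 without harmine libraries 3 and 4. The shares of all genes were not counted without these libraries. The 4 largest differences that passed were in TNFRSF10D (log2 2.24, adjusted p = 0.00931), ACER2 (1.79, adjusted p = 6.76e-10), TIGAR (-0.85, adjusted p = 1.11e-05) and PLK3 (-0.67, adjusted p = 1.22e-06, all from edgeR). The difference in TNFRSF10D rests on few counts and was lost under 17 alternatives, 11 of them single libraries left out (1.76 to 2.55). Those in FDXR (0.20) and PHLDA3 (-0.21) were lost without single libraries too, at 0.17 to 0.19 without 1 of 9 libraries and at -0.19 to -0.20 without water library 1 or DMSO library 4. MDM4, MDM2 and CCNG1 differed by -0.62, -0.61 and -0.61. For genes that rose with both, the test of the difference missed the threshold in BBC3 (-0.16, standard error 0.07), TP53I3 (-0.14, standard error 0.05), TNFRSF10C (-0.18, standard error 0.15) and KITLG (-0.46, standard error 0.15), which does not show that the compounds act alike on them. It was passed in BBC3 without harmine library 4 (-0.23). TP53I3 passed without that library or INDY library 2 (-0.19 and -0.17), with DESeq2 (adjusted p = 0.00502) and with library totals (adjusted p = 0.00677). KITLG passed without harmine library 3 or INDY library 2 or 4 (-0.52 to -0.59), without INDY libraries 2 and 4 together (-0.70, adjusted p = 4.24e-06), with DESeq2 (adjusted p = 0.00614), with library totals (adjusted p = 0.00902), with no filter (adjusted p = 0.00583) and with the replicate block (adjusted p = 0.007).

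The controls themselves differed for 5 genes, all lower with DMSO than with water (14.3%, against 4.29% of all genes for both directions and 2.71% for lower). None of the 5 reached 1.5-fold (0.787% of all genes). All DMSO libraries lay below all water libraries in 12 genes (10.2% of all genes) and above them in 0 (9.76%), and 19.9% of all genes were separated in either direction. The 5 genes called lower were BAX, PMAIP1, AEN, RRM2B and ZMAT3, with log2 fold changes of -0.22, -0.38, -0.14, -0.26 and -0.33. No gene of the list was higher with DMSO in edgeR, DESeq2 or limma voom, where edgeR called 1.58% of all genes higher. In edgeR 1 gene had an unadjusted p under 0.05 in that direction. With single libraries left out, 2 to 7 genes were lower, and 2 without water library 1, water library 4 or DMSO library 2. Without water libraries 1 and 4 together, 1 of the 5 calls was left, and without harmine libraries 1 and 2, or 3 and 4, there were 3. Shares of all genes were not counted with libraries left out. For PMAIP1 this log2 fold change was larger in size than that of either compound, -0.15 with harmine and 0.09 with INDY. Levels under harmine and INDY are therefore set only against their own controls.

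Libraries of a group shared deviations in many of these genes. In 20 of the 35 genes, INDY libraries 1 and 3 both lay above libraries 2 and 4 (57.1%, against 27.6% of all genes). In 3 genes both lay below (27.6% of all genes). MDM2, MDM4, TIGAR, CCNG1, PLK3, EDA2R, GADD45A and KITLG were among the 20. In 18 genes, water libraries 1 and 4 both lay above libraries 2 and 3 (51.4%, against 26.1% of all genes), PPM1D, CCNG1, TIGAR, RRM2B and ZMAT3 among them. In 5 genes both lay below (27.4% of all genes). In 13 genes, harmine libraries 1 and 2 both lay above libraries 3 and 4 (37.1%, against 20.9% of all genes). In 7 genes both lay below (16.9% of all genes). The median of the 35 genes, taken as log2 of CPM relative to the mean of the matching control group, was 0.24, 0.15, 0.31 and 0.17 in INDY libraries 1 to 4, and 0.12 to 0.17 in the harmine libraries. It was -0.01 to 0.01 in the DMSO libraries and -0.03 to 0.05 in the water libraries. Every treated library thus lay above every control library on this measure, for both compounds.

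**Figure D3:**
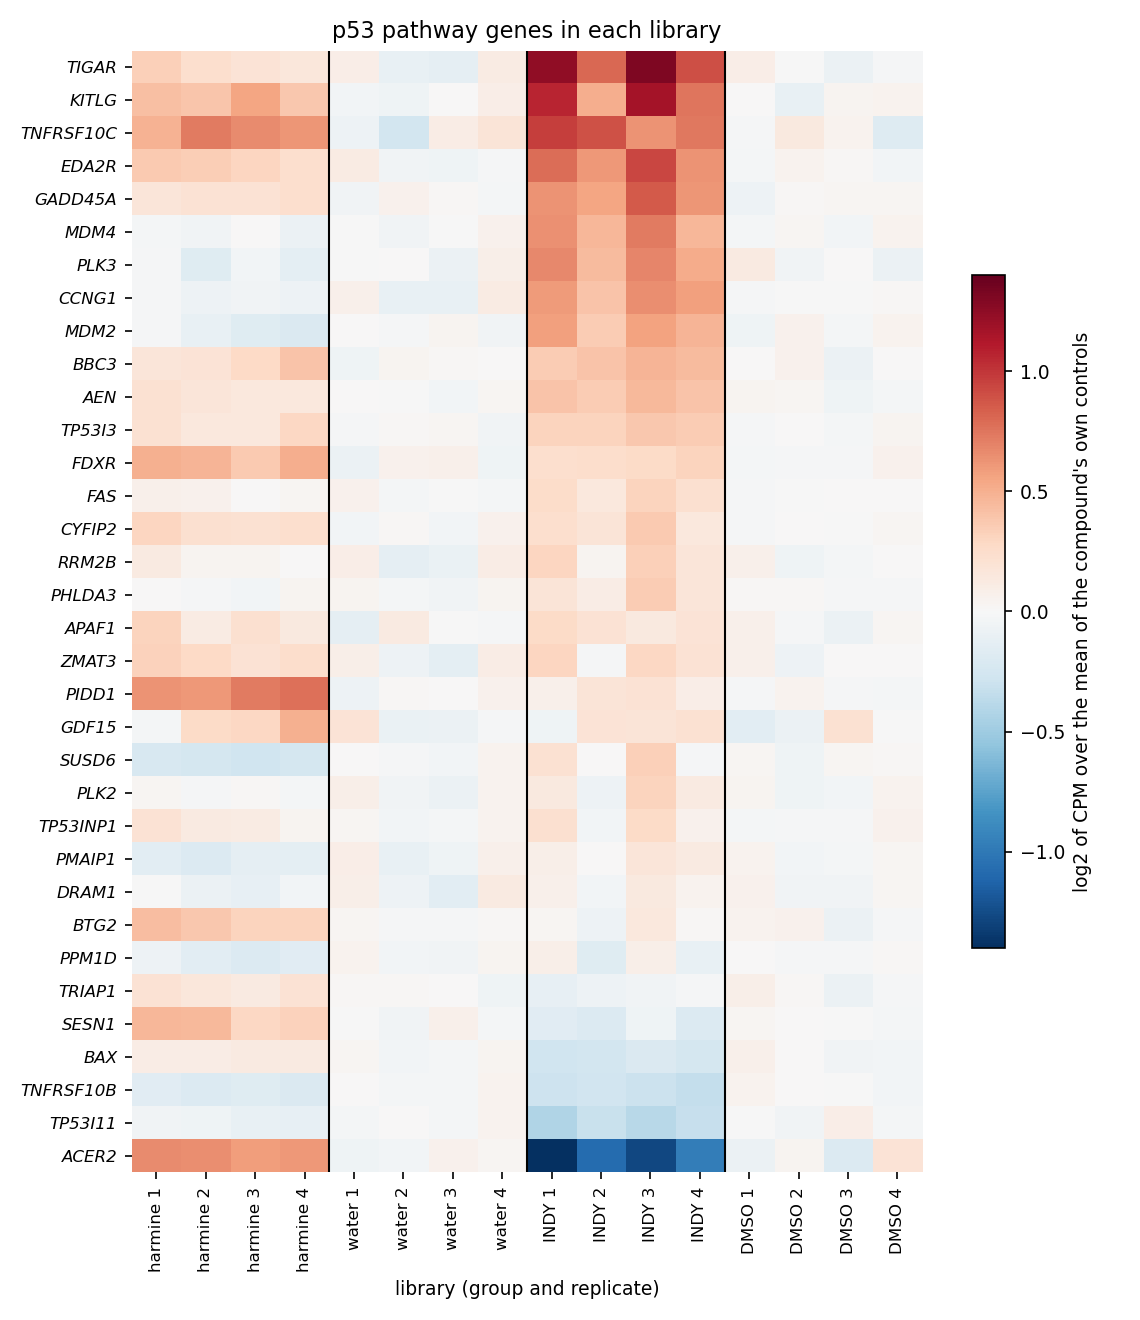
Level of 34 p53 pathway genes (rows, ordered by their change with INDY) in the 16 libraries (columns), as log2 of CPM relative to the mean of the matching control group, from blue (lower) to red (higher). TNFRSF10D, TNFRSF10A and SPATA18 are left out for low counts. The upper rows are redder in INDY libraries 1 and 3 than in INDY libraries 2 and 4.

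Other lists around p53 are set against all genes tested, of which harmine raised 24.9% and lowered 22.8%, and INDY raised 33.2% and lowered 33.4%. Of 50 further p53 targets, harmine raised 29 (58%) and lowered 4 (8%; median log2 0.22), and INDY raised 22 (44%) and lowered 12 (24%; median 0.09). With harmine the largest changes were in TLR3, a sensor of double-stranded RNA (-1.07), PRDM1, a transcriptional repressor (0.97), and PGF, an angiogenic factor (0.85). With INDY they were in ORAI3, a calcium channel (-1.92), ATF3, a stress-induced transcription factor (1.43), and FAM210B, a mitochondrial protein (-1.22). Of 24 regulators of p53 outside the 37 genes, harmine raised 8 (33.3%) and lowered 9 (37.5%), and INDY raised 11 (45.8%) and lowered 10 (41.7%). CHEK1, the S-phase checkpoint kinase (0.50), PPP1R13L, an inhibitor of p53 (0.46), and TP73, a relative of p53 (0.44), changed most with harmine, and TP63 (-2.51, at 0.0214 to 0.14 CPM with INDY and 0.406 to 0.597 CPM with DMSO), BRD7 (0.84) and TP53BP1 (-0.64) with INDY.

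ATF3 averaged 52.1 ± 6.01 CPM with INDY and 19.4 ± 0.599 CPM with DMSO, and 18.6 ± 1.23 CPM with harmine and 19.4 ± 0.912 CPM with water (SD, n = 4 each). It also belongs to the integrated stress response, a separate route to some of the same targets. Of 16 genes listed here under that response, HSPA5 and XBP1 among them, harmine raised 3 (18.8%, against 24.9% of all genes). It lowered 6 (37.5%, against 22.8%), and the median log2 was -0.12. INDY raised 6 (37.5%, against 33.2%) and lowered 8 (50%, against 33.4%), with a median of -0.25. The cystine transporter gene SLC7A11 fell most with both, by 1.01 and 1.65 on the log2 scale, followed with harmine by CHAC1 (-0.82) and the chaperone gene HSPA5 (-0.81). ASNS, the asparagine synthetase gene, had a log2 fold change of -1.17 with INDY. The 6 listed genes that INDY raised were ATF3 (1.43), NUPR1 (0.70), VLDLR (0.50), DDIT3 (0.36), PPP1R15A (0.29) and ATF4 (0.13). The part of either route in the levels of the 37 genes was not tested.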

How the data were processed

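Poly(A) RNA of 16 libraries was sequenced with a stranded kit. The authors made estimated counts per gene with Salmon 1.1 (GENCODE 37, GRCh38 as decoy, corrections for GC content and sequence bias) and tximport 1.14.2, and named edgeR 3.28.1 for their tests. The deposited estimated counts, which need not be whole, were rounded here. Salmon divides reads between similar transcripts, so genes that share sequence can exchange counts. The filter filterByExpr kept 20446 of 59081 genes, and edgeR 4.0.16 (R 4.3.3; TMM factors 0.982 to 1.022, common dispersion 0.00315) tested them in 1 model of the 4 groups, without the replicate number. Adjusted p is Benjamini-Hochberg over all genes tested, at a threshold of 0.01. Standard errors are the log2 fold change over the root of F. No columns of other samples were used.

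The list and the other gene lists were chosen with earlier results of these data known. Values in every library are given for MDM2, MDM4 and PPM1D, for the 6 largest log2 fold changes per compound and the 4 largest differences among genes that passed, and for the 3 largest changes per compound in other lists as means or log2 values. TNFRSF10B is given in every library after its values were seen. The stress response genes raised by INDY were also named after their values were seen. Coordinates are from GENCODE 44 on GRCh38, and sites on chromosome 8 are not printed. A planned search for genes with a like profile is not reported, since the libraries fall into 4 groups. Alternatives were DESeq2 1.42.0, limma voom (3.58.1), upper-quartile factors, library totals, other filters and thresholds, the 8 libraries compared, a replicate block and each library left out. The other thresholds were applied to the counts of genes and not to single genes. The fit was tested on simulated data.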

Additional observations from a re-analysis of the deposited data

Results flagged for a closer look

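Among 140 groups of 4 libraries (35 genes in 4 groups), 4 (2.86%) held a library far from the other 3 by Dixon's criterion, where chance flags about 1 in 20 groups. These were PIDD1 in DMSO replicate 2 (32 CPM), GADD45A in DMSO replicate 1 (60 CPM), TP53INP1 in DMSO replicate 4 (64.6 CPM) and GDF15 in INDY replicate 1 (2.82 CPM).

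For 21 genes the effect of harmine and the effect of INDY, each against its own control, differed at an adjusted p under 0.01 in edgeR, at unlike doses and in unlike solvents. The difference, harmine effect minus INDY effect on the log2 scale, was positive for TNFRSF10D (2.24), ACER2 (1.79), PIDD1 (0.54), SESN1 (0.54), BAX (0.36), BTG2 (0.32), TP53I11 (0.28), TRIAP1 (0.23) and FDXR (0.20). It was negative for TIGAR (-0.85), PLK3 (-0.67), MDM4 (-0.62), MDM2 (-0.61), CCNG1 (-0.61), GADD45A (-0.47), EDA2R (-0.44), SUSD6 (-0.38), PMAIP1 (-0.24), AEN (-0.23), PHLDA3 (-0.21) and FAS (-0.20).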

How the results depend on the processing

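No called log2 fold change of the 35 genes changed sign under any alternative run. Called or not called, 21 genes with harmine, 26 with INDY, 23 for the difference and 29 between the controls kept that outcome in every alternative fit. These numbers include genes that were never called, and the other thresholds were not applied gene by gene. The call was lost somewhere for 10 of the 20 genes called with harmine and 5 of the 26 called with INDY. It was also lost for 5 of the 21 called for the difference and 4 of the 5 called between the controls. The 3 genes lower with harmine became 6 with library totals only, 5 with no filter on low counts, 6 with only the 8 libraries compared, 6 at an adjusted p under 0.05 and 0 at 1.5-fold, and 2 to 5 when single libraries were left out. Without INDY libraries 1 and 3 there were 6, without INDY libraries 2 and 4 there were 5, and without water libraries 1 and 4, or harmine libraries 3 and 4, there was 1. The 17 genes higher with harmine became 10 without harmine libraries 1 and 2. At 1.5-fold, 3 genes were higher with harmine, 5 higher and 2 lower with INDY, 2 higher and 5 lower for the difference, and 0 lower with DMSO against water. The 5 genes lower with DMSO became 1 without water libraries 1 and 4, 3 without harmine libraries 1 and 2, 3 without harmine libraries 3 and 4, and 2 to 7 with single libraries left out, of which water replicates 1 and 4 and DMSO replicate 2 gave 2, and harmine replicate 2 and DMSO replicates 3 and 4 gave 3. Left-out single libraries gave 13 to 17 genes higher with harmine, and 17 to 22 higher and 5 to 6 lower with INDY. Calls lost somewhere were BAX, APAF1, GADD45A, KITLG, PMAIP1 and SUSD6 with harmine, with BBC3, EDA2R, TRIAP1 and ZMAT3 without a pair of harmine libraries, APAF1, PIDD1, RRM2B, SESN1 and ZMAT3 with INDY, FAS, FDXR, PHLDA3, PMAIP1 and TNFRSF10D for the difference, and AEN, BAX, RRM2B and ZMAT3 between the controls. Calls gained somewhere were MDM2, PPM1D, TIGAR and TP53I11 with harmine, and PLK2, PPM1D, SUSD6 and TP53INP1 with INDY. For the difference they were BBC3, KITLG, PLK2, PPM1D, RRM2B, TNFRSF10B and TP53I3, and between the controls MDM4 and PLK2. The causes were not tested. Same-numbered libraries had correlations of -0.053 to -0.007 for harmine and water and of -0.019 to 0.087 for INDY and DMSO. The same-numbered control was the best match for INDY libraries 1, 2 and 4, and for no harmine library. Correlations this small cannot decide whether the numbers pair the libraries. With the replicate block, 17 genes were higher and 3 lower with harmine, 20 higher and 5 lower with INDY, and 9 higher and 13 lower for the difference. Depth limits TNFRSF10D, TNFRSF10A and SPATA18.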
